A study of Caenorhabditis elegans with 6 samples.

Results

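The 60 probes described here belong to 42 genes on 4 genomic clones of chromosome V of Caenorhabditis elegans, and they are 60 of the 43603 non-control probes on the array. A clone is a piece of the genome that was sequenced as a unit, and a worm gene without a symbol is named after its clone and a serial number. The members were taken by name, as the probes whose design name begins with Y102A5C (38 probes of 26 genes), Y19D10B (6 probes of 6 genes), Y19D10A (4 probes of 4 genes) or F56A4 (12 probes of 6 genes). Genes with pud, nhr and clec symbols were to be left out, and 0 of the probes with these design names carried one. The clones were picked because earlier results of the same 6 arrays had shown transcripts there that RB1035 lacked. All strain differences of the members are therefore a description, with no test of their own.

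RB1035, a strain with a mutant allele of flcn-1, was set against WTN2, the wild type, with 3 arrays per strain. In worms flcn-1 corresponds to human folliculin, and the submitters' design text gives 8 backcrosses of RB1035 to WTN2. All samples were whole young adults picked before reproduction, synchronised from eggs and fed OP50 bacteria, and the design text calls the 3 samples of each strain biological triplicates. In whole animals, fewer cells of a type and less RNA per cell cannot be told apart.

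On single arrays, 68.1% to 73.1% of all probes gave a signal well above background. Slide 1 held RB1035 1 and WTN2 1, and slide 2 held the other 4 arrays. The 4 probes of flcn-1 itself differed by -0.11 to 0.22 on the log2 scale and were well above background on all 6 arrays. The labels do not say which part of the gene the allele changes, so these probes do not check the strain labels. Of 20 genes picked as markers of tissues and stages, 20 had a probe well above background on all 6 arrays. These included bli-1 and col-17, picked as larval collagen genes, so their detection does not check the adult stage. Copies of the same probe varied more on RB1035 2 and RB1035 3, with median coefficients of variation of 22.4% and 20.9%, than on the other arrays, at 8.19% to 10.9%. The part of this spread in the results was not tested.

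The genes of these clones fall into a few families with many members on the arms of worm chromosomes. Genes of the fbxa family encode F-box proteins, a class that brings substrates to ubiquitin ligases, and this family is large and changes quickly in evolution. The srh, sri, srz, srbc, srd and str genes belong to families of predicted chemoreceptors, which sense odours and tastes and are usually active in few cells. The irld genes encode proteins with a domain like the ligand-binding part of the insulin and EGF receptors. Single members have other known classes: efl-1 encodes an E2F-like transcription factor, nas-2 an astacin metalloprotease and grd-17 belongs to the hedgehog-related groundhog-like genes. Genes known only by a sequence name, such as F56A4.3 or Y102A5C.6, are given no role here.

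Each value below is the processed signal of a spot, a brightness after background subtraction, and each difference is the log2 signal of RB1035 minus that of WTN2 after each array was scaled to its 75th percentile. A probe was called lost when it was well above background on 0 of 3 RB1035 arrays and on 3 of 3 WTN2 arrays, gained in the reverse case, kept on 6 of 6 arrays and dim on 0 of 6. Any other pattern was called partial. Of the 60 probes, 8 were lost, 22 were kept, 21 were dim, 9 were partial and 0 were gained. Of the members, 34 were well above background on all 3 WTN2 arrays, the 8 lost among them, and 22 on all 3 RB1035 arrays. Over all probes, 0.114% of those well above background on the 3 WTN2 arrays were lost, and 0.122% of those well above background on the 3 RB1035 arrays were gained. The 8 lost members were among 33 lost probes on the whole array. A drop of at least 2 on the log2 scale beside the flags left 21 lost probes in all, 0.0729% of those well above background in WTN2, and all 8 lost members were among them. Another 3 of these 21 also lay on chromosome V, namely both probes of srbc-15 and 1 probe of Y102A5C.36. Of the rest, 2 lay on other chromosomes and 8 could not be placed on any. Differences of the unplaced probes reached -10.96.

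The lost members were probes of 6 genes, 1 of them on F56A4 (F56A4.3) and 5 on Y102A5C (Y102A5C.4, Y102A5C.35, Y102A5C.6, fbxa-110 and fbxa-111). The flags that define the lost class make a lack of overlap between strains likely for these probes, so it is given below as description only. For F56A4.3, the probe with the largest difference read 3.55, 5.22 and 2.82 in RB1035 1, 2 and 3, against 11627, 4678 and 10831 in WTN2 1, 2 and 3. The highest RB1035 value was far below the lowest WTN2 value, and the RB1035 values lay within the range of the negative control spots. The difference was -11.36 ± 0.40 (SE), the most negative among the 31224 probes tested on the array. Because RB1035 had no signal well above background, each RB1035 array was given the higher of its own value and its lowest signal well above background. By this rule the probe was at least 655-fold lower in RB1035. Every fold given as at least follows this rule and the main scaling. It is no strict limit, since spots above that floor can lack the flag. On RB1035 3 the floor was 7.76, and fbxa-112 at 20.2 was not flagged. Differences of the lost members were smaller in size with normexp background correction and in the authors' deposited table.

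The lost probe of Y102A5C.6 read 10.3, 5.22 and 11.6 in RB1035, against 5339.6, 7848 and 6458 in WTN2. The strains did not overlap, the difference was -9.79 ± 0.40 (SE, n = 3 arrays per strain) and the signal was at least 443-fold lower in RB1035. A second probe of Y102A5C.6 was dim on all arrays, at 4.21, 5.22 and 2.63 in RB1035 and 14.5, 13.2 and 9.71 in WTN2. It was lower in every RB1035 sample than in any WTN2 sample, by 1.90 on average on the log2 scale. The gene table lists Y102A5C.6 as a pseudogene, a gene copy not thought to encode a working protein.

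All 3 probes of Y102A5C.35, also listed as a pseudogene, were lost. The first read 15.02, 5.22 and 5.45 in RB1035, against 251, 156 and 272 in WTN2, a difference of -5.10 ± 0.40 (SE) and at least 17.2-fold lower. The second read 6.32, 5.22 and 5.71 in RB1035, against 138, 100.2 and 125 in WTN2, a difference of -4.62 ± 0.28 (SE) and at least 9.37-fold lower. The third probe of this gene read 12.4, 5.22 and 6.96 in RB1035, against 70.0, 51.6 and 82.4 in WTN2, with a difference of -3.35 ± 0.34 (SE) and at least 5.22-fold lower. None of the 3 overlapped between strains, and each was low on all 3 RB1035 arrays. With normexp background correction their differences were -1.44, -0.88 and -0.36, and in the authors' deposited table -3.41, -2.82 and -1.89.

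The other 3 lost probes were close to background in WTN2 too. The Y102A5C.4 probe read 21.0, 9.68 and 11.2 in RB1035, against 56.1, 39.4 and 87.2 in WTN2, at least 3.71-fold lower. The fbxa-110 probe, of an F-box pseudogene, read 8.71, 5.38 and 5.41 in RB1035, against 22.2, 25.1 and 42.8 in WTN2, at least 2.25-fold lower. One probe of fbxa-111, an F-box gene, read 8.09, 5.22 and 8.97 in RB1035, against 30.6, 20.6 and 34.7 in WTN2, at least 2.08-fold lower. None of these 3 overlapped between strains, which the lost class makes likely, with differences of -2.36 ± 0.35, -2.41 ± 0.30 and -2.18 ± 0.33 (SE). The other member probe of fbxa-111 was dim on all 6 arrays, with a difference of 0.51, so the gene rests on 1 faint probe. Under normexp background correction, which compresses low signals, the differences of these 3 probes were -0.090 for Y102A5C.4, 0.081 for fbxa-110 and 0.12 for fbxa-111.

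The lost probes were set beside the 153 negative control spots of each array. Of the 24 values of the 8 lost probes on RB1035 arrays, 24 were no higher than the highest negative control of their array (25.7, 124 and 60.8 on RB1035 1, 2 and 3, with medians of 3.89, 5.22 and 2.99). This count does not separate lost from kept probes. The 2 kept probes of F56A4.3 read 23.5 to 29.9 on RB1035 2 and 3, also under the highest negative control. On WTN2 1, 2 and 3, 0, 2 and 1 of the 8 lost probes were no higher than the highest negative control. Those 3 values belonged to fbxa-110 and fbxa-111. On RB1035 2, all spots below the scanner software's weaker test for signal carry the same value, 5.22, which 27 of the 60 members share. A weaker flag, for spots positive and significant over background, was set for 7 of the 8 lost probes on at least 1 RB1035 array, for 2 of them (Y102A5C.4 and fbxa-110) on all 3, and for F56A4.3 on none. The lost probes lay between row 31 and row 371 of 532 and between column 28 and column 81 of 85. An effect of their place on the slide was not tested.

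The lost class asks for no signal well above background on any RB1035 array. This makes lower RB1035 values on each slide likely by selection, and the values by slide only describe their size. On slide 1, with 1 array per strain, the 8 differences had a median of -3.80 and ranged from -12.19 to -1.86. On slide 2, with 2 arrays per strain, they had a median of -3.98 and ranged from -10.94 to -2.05.

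In the fit over all 31224 probes that were well above background on at least 3 arrays, 36 of the 60 members were tested and 24 were not. Of these 36, 9 probes fell past an adjusted p of 0.05 (limma with Benjamini-Hochberg adjustment) and 0 rose, where 0.0673% of all tested probes fell and 0.0256% rose. The 9 were 4 probes of F56A4.3, 3 of Y102A5C.35 and 1 each of Y102A5C.6 and fbxa-110. The fbxa-110 probe did not pass with slide or replicate number as a block, on slide 2 alone, without a filter, with trended robust limma, in the authors' deposited table, with normexp, or with any 1 array left out. Among the 36, 21 lay below WTN2 without overlap, against 6.17% of all tested probes, and 0 lay above without overlap, against 5.21%. Differences were negative for 33 of 36, against 47.3% of all tested probes, and at or under -1 for 20 of 36, against 3.3%. The median of the 36 was -1.30, beside 0.03 for all tested probes. With normexp background correction 2 of the clone probes fell, those lost of F56A4.3 and Y102A5C.6, and among probes well above background on all 6 arrays 2 fell as well. The 8 lost members are part of these counts. They passed the filter only through the WTN2 arrays, so lower RB1035 values without overlap were likely for them by selection. For this reason, and as the clones were chosen from this contrast, nothing further is read from these counts. By clone, the tested differences ran from -9.79 to 0.46 on Y102A5C (23 probes), from -2.04 to -1.94 on Y19D10A (2 probes) and from -11.36 to -0.23 on F56A4 (10 probes), and the 1 tested probe of Y19D10B stood at 0.43. A tested probe also had to be well above background on at least 3 arrays, and the dim members are not part of these figures.

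The order of the genes on chromosome V showed where lost and kept transcripts lie. The gene table lists 7871 genes on this chromosome. The first Y19D10B gene is at place 641 in that order and the first Y102A5C gene at place 6510, so the clones form 2 stretches with 5819 genes between them. Y19D10B, Y19D10A and F56A4 lie in the first stretch and Y102A5C in the second. The array has probes for 31 genes in each stretch, with genes of other names or clones counted too.

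Within Y102A5C the lost transcripts, except that of fbxa-111, were side by side among the genes with probes. From Y102A5C.4 to fbxa-110 the table lists 8 genes, 5 of which have probes, and each of the 5 had a lost probe. Of these 5, Y102A5C.36 is no member because its probe is named by an accession. It showed a difference of -6.36 ± 0.29 (SE) and was at least 28.0-fold lower in RB1035. Immediately before this run lie fbxa-206, Y102A5C.2 and fbxa-207, and all 7 of their member probes were kept. Immediately after it lie fbxa-148 and fbxa-204, both dim in either strain, and then Y102A5C.11, whose 3 probes were kept. The run therefore ends somewhere between fbxa-110 and Y102A5C.11 as far as these probes can tell. Its end genes, Y102A5C.4 and fbxa-110, rest on 1 faint probe each, so the limits of the run are uncertain. Under normexp background correction these probes differed by only -0.090 and 0.081. The weaker flag for signal was set for both on all 3 RB1035 arrays. The lost probe of fbxa-111 stands apart from the run, behind Y102A5C.11 and the dim Y102A5C.37.

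Most other measurable transcripts of Y102A5C were well above background in both strains. The clone had 14 kept probes of 7 genes, with a median difference of -0.43 and a range of -1.16 to 0.46. Of the 14, 2 lay below WTN2 without overlap (both of Y102A5C.11) and 0 above. Over the whole array, 1702 of 27780 kept probes lay below and 1395 above without overlap. The median of the 14 was 0.02 on slide 1, where 7 of 14 were lower in RB1035, and -0.61 on slide 2, where 12 of 14 were lower. The share of all probes was not worked out by slide.

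Before the run, the F-box gene fbxa-206 read 5217, 4229.7 and 1568 in RB1035, against 4731, 2134 and 4678 in WTN2, a difference of -0.38 ± 0.45 (SE). Its strains overlapped. The 2 member probes of Y102A5C.2 differed by -0.01 and 0.12, and the 4 probes of the F-box pseudogene fbxa-207 by -0.75 to -0.16, all with overlap between strains. Behind the run, Y102A5C.11, a pseudogene, was the nearest kept gene. One of its probes read 84.8, 60.0 and 55.5 in RB1035, against 85.4, 96.5 and 135 in WTN2. That probe did not overlap between strains after scaling, and the 3 probes of Y102A5C.11 differed by -0.89, -0.51 and -0.44.

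Further along the clone, srh-206, a predicted chemoreceptor gene, had the largest difference among the kept probes of Y102A5C. It read 129, 36.5 and 59.3 in RB1035, against 86.9, 105 and 213 in WTN2, a difference of -1.16 ± 0.46 (SE). The strains overlapped, and slide 1 gave 0.05 where slide 2 gave -1.77. The transcription factor gene efl-1 read 4194, 5527 and 4436 in RB1035, against 3175, 2354 and 3292 in WTN2. After scaling the strains overlapped, with a difference of 0.46 ± 0.29 (SE), and it was -0.11 on slide 1 and 0.74 on slide 2. The 2 probes of the F-box gene fbxa-90 differed by -0.49 and -0.55, with overlap.

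Partial probes of Y102A5C gave little on either strain. The F-box gene fbxa-112 was well above background on 1 RB1035 array and 3 WTN2 arrays, at 21.9, 22.1 and 20.2 in RB1035 and 25.6, 21.2 and 28.0 in WTN2. After scaling every RB1035 sample lay just below every WTN2 sample, with a difference of -0.44 ± 0.26 (SE). The chemoreceptor gene srz-95 read 3.73, 5.22 and 82.0 in RB1035, against 40.5, 33.8 and 7.35 in WTN2. It was high in 1 RB1035 sample and in 2 WTN2 samples, and its difference of -3.96 on slide 1 stood against 0.31 on slide 2. A probe of the pseudogene grd-17 was well above background only on WTN2 2, at 35.9.

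In the first stretch, most measurable transcripts of Y19D10A and F56A4 were lower in RB1035 without being lost. These clones together had 7 kept probes of 6 genes, all 7 lower in RB1035 without overlap between strains. Over the whole array 1702 of 27780 kept probes lay below WTN2 without overlap, and 6.17% of all tested probes did, but these clones were chosen from this contrast. Their differences ranged from -4.34 to -1.43 with a median of -2.27. The median was -2.48 on slide 1 and -2.17 on slide 2, and lower values on both slides follow from the lack of overlap. With partial and lost probes counted too, 11 of the 12 tested probes of these 2 clones lay below WTN2 without overlap. No test was made between the kept probes of this stretch and those of Y102A5C, since both were chosen from the same contrast.

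Y19D10A.8 read 527, 571 and 233 in RB1035, against 2053, 836 and 1437 in WTN2, a difference of -1.94 ± 0.42 (SE). Y19D10A.11 read 167, 122 and 163 in RB1035, against 537, 544 and 489 in WTN2, a difference of -2.04 ± 0.30 (SE). All 3 RB1035 samples were below all 3 WTN2 samples for both genes. The remaining probes of Y19D10A were near background. The predicted chemoreceptor pseudogene srd-76 read 15.8, 11.6 and 11.2 in RB1035, against 14.3, 35.4 and 36.8 in WTN2, where 2 arrays were well above background. After scaling its strains did not overlap, but the count of lost probes asked for 3 WTN2 arrays. Y19D10A.2 was well above background only on WTN2 1, at 109.9, with all other arrays between 2.93 and 5.22.

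On F56A4, the probe of F56A4.2 read 66222.5, 82667.5 and 50445 in RB1035, against 113749, 146855 and 202142 in WTN2. The strains did not overlap and the difference was -1.43 ± 0.29 (SE). F56A4.10 read 570.0, 244 and 439 in RB1035, against 2209, 1059 and 1809 in WTN2, a difference of -2.27 ± 0.40 (SE) without overlap. A second probe of F56A4.10 was near background, at 21.9, 6.27 and 9.66 in RB1035 and 22.1, 2.86 and 21.0 in WTN2. That faint probe overlapped between strains and differed by -0.23 ± 0.75 (SE).

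The insulin/EGF-receptor domain gene irld-35, whose gene follows F56A4.3 in the order, read 127, 64.7 and 32.2 in RB1035, against 1193, 742 and 191 in WTN2. The samples spread widely within each strain and did not overlap, with a difference of -3.33 ± 0.75 (SE). After scaling, the highest RB1035 sample (RB1035 1) stood at -4.25 and the lowest WTN2 sample (WTN2 3) at -3.49 on the log2 scale.

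F56A4.3 was measured by 6 probes, with differences from -11.36 to -3.16. Of these, 1 was lost, 2 were kept and 3 were partial. The first kept probe read 55.8, 29.9 and 23.5 in RB1035, against 619, 416 and 780 in WTN2, a difference of -4.34 ± 0.33 (SE). The second kept probe read 59.0, 26.9 and 26.5 in RB1035, against 488, 447 and 685 in WTN2, a difference of -4.16 ± 0.33 (SE). Both were lower in every RB1035 sample, but each was well above background there.

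Of the partial probes of F56A4.3, one read 59.1, 21.5 and 13.4 in RB1035, against 651, 386 and 654 in WTN2, a difference of -4.64 ± 0.47 (SE). Another read 10.9, 45.9 and 4.16 in RB1035, against 1703, 296 and 1062 in WTN2, a difference of -6.22 ± 0.87 (SE). The last read 63.3, 17.05 and 4.90 in RB1035, against 168, 113 and 124 in WTN2, a difference of -3.16 ± 0.73 (SE). On each of the 6 probes every RB1035 sample lay below every WTN2 sample. RB1035 1 was the highest RB1035 sample on the kept probes and on 2 of the partial ones, and RB1035 2 on the partial probe at -6.22. Where along the transcript the 6 probes lie was not analysed here.

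Y19D10B, at the start of the first stretch, had 5 dim probes and 1 kept probe. The kept gene, Y19D10B.6, read 419, 446 and 377 in RB1035, against 169.9, 299.5 and 353 in WTN2. After scaling the strains overlapped, since RB1035 1 lay below WTN2 2, and the difference was 0.43 ± 0.31 (SE). Among the dim genes of Y19D10B were irld-15 and irld-16.

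Genes outside the member set show what lies around the stretches. Between Y19D10B and Y19D10A, pud-3 differed by 1.71 ± 0.78, pud-4 by 1.55 ± 0.57, pud-2.1 by 0.36 ± 0.49 and pud-1.1 by 0.69 ± 0.46 (SE). Between strains pud-4 did not overlap and the other 3 did, and pud-3 differed by 0.46 on slide 1 and 2.34 on slide 2. Also in this interval, the tested probe of irld-32 differed by -0.29, and the predicted chemoreceptor pseudogene srbc-15 was lost on both of its probes, with differences of -9.64 and -9.17. Between Y19D10A and F56A4, srd-60 differed by -2.65 ± 0.64 and C13B7.6 by -0.88 ± 0.32 (SE), both below WTN2 without overlap. The other non-member probes there were not tested, and they ran from -1.71 for str-120 to 0.08 for str-265. Among the 5 probed genes behind F56A4, 5 of 5 were lower in RB1035, with a median of -1.08, and 3 of the 5 did not overlap. They ran from -1.93 for C01B4.8 to -0.34 for srd-61. Among the 5 before Y19D10B, 5 of 5 were lower, with a median of -0.68 and a lowest value of -1.32 for nhr-115, which was -0.05 on slide 1 and -1.96 on slide 2. Over all tested probes, 47.3% were lower in RB1035 and 6.17% lay below WTN2 without overlap. Around Y102A5C most flanking probes were dim. Only nhr-116 before it, at 0.01, and 2 probes of F49H6.14 behind it, at 0.07 and 0.37, were tested.

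The 21 dim members could not be counted as lost, since neither strain was well above background. By the weaker flag, the dim probe of Y102A5C.6 had signal on 3 WTN2 arrays and on 0 RB1035 arrays. The differences of the dim probes ranged from -1.90 to 0.70. Of these probes, 12 belong to pseudogenes, 8 to protein-coding genes and 1, of Y19D10B.2, has no entry in the gene table. The chemoreceptor genes were mostly in this class: srbc-80, srz-52, srz-53, srz-54, str-217, sri-9 and srh-131 on Y102A5C were dim on all arrays, as was nas-2 on F56A4. Pseudogenes were found in every class. Among the lost probes, 5 belong to 3 pseudogenes and 3 to 3 protein-coding genes, and among the kept probes 7 belong to 2 pseudogenes and 15 to 12 protein-coding genes.

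The families that hold members were described over the rest of the array. Outside the clones, 192 fbxa probes were tested. Of these 0 fell and 0 rose past the threshold and 0 were lost, and their differences ranged from -1.34 to 0.90 with a median of -0.27. The 10 tested fbxa members had a median of -0.47, and 2 of them, of fbxa-110 and fbxa-111, were lost. The irld family had 16 tested probes elsewhere, from -0.96 to 0.14 with a median of -0.36, while irld-35 stood at -3.33. Elsewhere in the srh family 22 probes were tested and in the str family 31, with medians of -0.17 and -0.25, and 0 passed the threshold. In the srbc family 4 probes outside the clones were tested, and the 2 that fell were those of srbc-15. Dim probes made up 81.0% of the other srh probes, 87.0% of the other srbc probes, 91.7% of the other srz probes and 24.3% of the other fbxa probes.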

How the data were processed

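RNA of 3 RB1035 and 3 WTN2 samples, labelled with Cy3, was hybridised to 1-colour Agilent arrays, per the labels' protocols. Spot intensity values were extracted by the authors with Feature Extraction 10.7.3.1, per the file headers, from probes designed against build ce4. The processed signal intensity in the deposited files is background-subtracted and not normalized between arrays. The deposited series table holds the authors' log2 values (array medians of 7.61 or 7.62), used only as an alternative; how they made it is not stated in the labels or headers. On RB1035 2 the software divided out no multiplicative surface, per the file headers.

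Of 45220 spots per array, 1417 controls were left out, and the other 43803 spots were averaged to 43603 probes. Each array's log2 signals were scaled by subtracting their 75th percentile. Probes with an outlier flag (149, none of them a member) were not tested, and 0 were saturated. Probes flagged well above background on 3 or more of the 6 arrays were fitted in R 4.3.3 by limma 3.58.1 (lmFit, then eBayes, with strain as the only term, two-sided), adjusted by Benjamini-Hochberg over all 31224, with a threshold of 0.05. The script was tested on simulated data. The number of arrays limits the precision of every value. Probes were named through a gene table of assembly WBcel235 (30978 by sequence name, 3342 by accession, 9283 not matched), used for names, gene class and gene order only, because its build is not that of the array. Of the clones' genes, 9 further probes named by accession are not members.

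The members, gene lists and classes were chosen with earlier results of these data known. Genes were named by rule: those with a lost probe or a probe past the threshold, and per clone the 2 kept genes of highest mean level and the kept gene with the largest difference. Others named were chosen after their values were seen. Replicate numbers were not used in the model. Alternatives were median and quantile scaling, normexp (offset 50), the series table, other filters, 1 probe per gene, slide and replicate number as blocks, single slides, each array left out, trended robust limma and other detection flags.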

Additional observations from a re-analysis of the deposited data

How the results depend on the processing

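Of the clone probes, 9 fell past the threshold. The count was 2 with normexp background correction, 2 among probes well above background on all 6 arrays (where a lost probe cannot enter) and 4 with 1 probe per gene, and 8 to 10 under the other scalings, values, filters, blocks and the trended robust limma, slide 2 alone included. Leaving out 1 array gave 6 to 9, with 6 without any one WTN2 array. No clone probe rose (0) under any of these. Over all probes, 21 fell, against 10 with normexp, 2 with the 6-array filter and 18 to 27 with 1 array left out. Over all probes 8 rose, against 2 with normexp, 0 with the 6-array filter, 4 with 1 probe per gene, 16 on slide 2 alone and 6 to 7 with 1 array left out. Samples with the same replicate number lay on the same slide, but their deviations correlated at only 0.12, 0.12 and 0.02, so they were not taken as pairs. With them as a replicate block, 9 clone probes fell, and 23 of all probes fell and 26 rose. By the weaker positive and significant flag 2 clone probes were lost (F56A4.3 and the dim probe of Y102A5C.6). With at most 1 of 3 RB1035 and at least 2 of 3 WTN2 arrays asked, 15 were lost, and with 1 array left out 8 to 11. The difference of fbxa-110 had the other sign under normexp (0.081). Those of fbxa-111 (0.12) and srh-206 (0.09) were also above 0 there, and the lost probes of F56A4.3 and Y102A5C.6 stood at -6.55 and -5.64. The 3 probes of Y102A5C.35 stood at -1.44, -0.88 and -0.36 there and no longer passed, nor did the other 3 called probes of F56A4.3. The third probe of Y102A5C.35 (-1.89) and fbxa-110 did not pass in the authors' table either. The same probe of Y102A5C.35 and the called partial probe of F56A4.3 did not pass without any one WTN2 array, and fbxa-110 did not pass without any one array or with a block. In the authors' deposited table fbxa-110 stood at -1.19, F56A4.3 at -9.44 and Y102A5C.6 at -8.07. The cause was not tested. The signal over background in WTN2 limits how large a loss each probe can show.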
